A study of Homo sapiens with 16 samples.

Results

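The enzymes that make serine and pass its carbon to folate were examined for histone methylation at their start sites after exposure of MCF-10A to octanoic acid (OA). MCF-10A is an established line of nontransformed epithelial cells from the human breast. The set holds 10 genes, given as a list of pathway enzymes: PHGDH, PSAT1, PSPH, SHMT1, SHMT2, MTHFD1, MTHFD1L, MTHFD2, ALDH1L1 and ALDH1L2, of 20033 protein-coding genes on the main chromosomes (1 to 22, X and Y). Each gene was represented by the called regions within 3 kb of any start site that GENCODE release 44 gives it, which came to 13 of the 18734 H3K4me3 regions and 0 of the 32643 H3K27me3 regions. CUT&RUN, in which an antibody directs a micrococcal nuclease to cut the chromatin it binds, was performed on cells that received 5 mM OA or PBS (vehicle) for 24 hours. There were 3 OA and 3 vehicle libraries for each mark, beside 2 untreated libraries each for H3K4me3 and for the IgG negative control. All libraries came from this single established line, seeded in biological triplicate, so p-values measure the spread between cultures of 1 line.

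PHGDH, PSAT1 and PSPH turn the glycolytic intermediate 3-phosphoglycerate into serine by oxidation, transamination and dephosphorylation. SHMT1 in the cytosol and SHMT2 in mitochondria split serine into glycine and a carbon unit bound to tetrahydrofolate. MTHFD1 in the cytosol, and MTHFD2 and MTHFD1L in mitochondria, interconvert the folate-bound units and formate, and ALDH1L1 and ALDH1L2 oxidize 10-formyl-tetrahydrofolate to carbon dioxide in the cytosol and mitochondria. H3K4me3 marks the start sites of genes that are active or ready to be transcribed, and H3K27me3, laid down by Polycomb repressive complex 2, covers silenced ones.

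The promoters of 4 members are shown as examples. They are PHGDH, the entry enzyme, PSAT1 and MTHFD2, called in every H3K4me3 library and with repeated CCAAT letters, and ALDH1L1, the member with the fewest calls. SHMT1 was likewise called in every H3K4me3 library and has repeated CCAAT letters, but is not shown. RefSeq sequences (GRCh38.p14, the same build number as the hg38 of the files) were found for 7 of the 10 genes; PSPH, SHMT2 and ALDH1L2 had no entry. Each line gives the 250 bases upstream of the canonical start site, 5′ to 3′ on the coding strand, with capitals for matches to any of the 5 motifs searched. PHGDH spans chr1:119711684-119711933 (+), PSAT1 chr9:78296875-78297124 (+), MTHFD2 chr2:74198365-74198614 (+) and ALDH1L1 chr3:126180587-126180836 (-).
PHGDH: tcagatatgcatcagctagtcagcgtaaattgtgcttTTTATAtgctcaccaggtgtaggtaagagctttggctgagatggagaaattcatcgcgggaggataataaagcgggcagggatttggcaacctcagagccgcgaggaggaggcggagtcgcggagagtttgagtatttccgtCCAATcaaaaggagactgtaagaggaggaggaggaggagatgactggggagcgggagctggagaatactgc
PSAT1: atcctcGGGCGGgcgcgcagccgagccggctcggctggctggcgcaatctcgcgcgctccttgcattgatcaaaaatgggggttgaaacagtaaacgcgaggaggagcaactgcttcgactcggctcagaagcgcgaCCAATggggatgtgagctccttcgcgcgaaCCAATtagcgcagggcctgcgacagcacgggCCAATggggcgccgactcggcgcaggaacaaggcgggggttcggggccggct
MTHFD2: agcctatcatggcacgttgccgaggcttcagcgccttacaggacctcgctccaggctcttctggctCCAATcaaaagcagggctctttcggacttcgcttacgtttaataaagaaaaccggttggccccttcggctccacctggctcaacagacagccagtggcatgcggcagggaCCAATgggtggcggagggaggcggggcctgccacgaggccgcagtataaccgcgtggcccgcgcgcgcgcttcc
ALDH1L1: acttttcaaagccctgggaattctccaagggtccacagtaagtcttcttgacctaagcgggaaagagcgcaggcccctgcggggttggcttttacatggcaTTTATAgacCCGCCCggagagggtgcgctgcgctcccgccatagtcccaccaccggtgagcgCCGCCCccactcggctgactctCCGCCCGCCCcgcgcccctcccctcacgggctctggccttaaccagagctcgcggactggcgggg

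Motifs were searched as exact letters on both strands. CCAAT belongs to a common promoter box and GGGCGG to the GC box bound by Sp factors. TATAAA forms the core of some promoters, and CACGTG is known as an E-box. TGATGNAA is the pattern of amino acid response elements. CCAAT stood in 5 of the 6 members with a RefSeq entry at their canonical start (PHGDH, PSAT1, MTHFD1, MTHFD2 and SHMT1), against 32.0% of the 35116 promoter windows of the same length. PSAT1 held 3 copies, at -113, -83 and -52 bp, all on the coding strand, where each position is that of the first base. GGGCGG was in 3 of the 6 (ALDH1L1, PSAT1 and SHMT1), beside 42.6% of all windows. ALDH1L1 held no CCAAT and had GGGCGG at 4 positions on the opposite strand, of which the 2 nearest the start overlap. TGATGNAA was in 0 of these 6 windows and in 3.14% of all windows. CACGTG was in MTHFD1 alone of the 6 (6.34% of all windows), and TATAAA in PHGDH and ALDH1L1 (10.7%), at -213 and -149 bp, both read on the opposite strand. The windows just before 2 internal MTHFD1L start sites overlap each other, and both hold 1 copy of TGATGNAA beside the CCAAT box, the E-box and the GC box. The 35116 windows include alternative starts, which the 6 canonical windows do not. Over all 11 member entries, with the overlapping MTHFD1L windows, CCAAT was in 8, GGGCGG in 6, CACGTG in 3, and TGATGNAA and TATAAA in 2 each. A match is a description of these letters, and their absence says nothing about a factor.

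The authors' lists hold no read counts. Each peak carries a fold enrichment, relative to the background that the caller estimated around it, and a −log10 p-value, both of which grow or shrink with depth, so peaks were compared by the percentile of the −log10 p-value within their own list, where 100 is the strongest. H3K4me3 lists of the vehicle and OA libraries held 16086 to 21033 peaks, the untreated lists 12924 and 11242, and the IgG lists 1280 and 1131. Depth is known only roughly, from the smallest background level that many peaks of a list have in common. In the vehicle and OA lists it ran from 0.450 in vehicle replicate 3 to 0.853 reads in OA replicate 1. Vehicle replicate 3 also had the shortest peaks of the 6, with a median of 559 bp against 736 to 1028 bp in the others. This level did not order the libraries as the reads piled up under peaks did. At the member regions called in all 6 libraries, the median pile-up was 39.5 reads in OA replicate 1 and 152 in vehicle replicate 2 (level 0.775). Vehicle replicate 3 was lowest of the 6 by both, with a median of 32.5. The untreated lists had levels of 0.941 and 0.947 and medians of 21.5 and 18. Of 8 basal or general epithelial markers, 4 (KRT5, KRT17, EGFR and ITGB4) had an H3K4me3 region called in all 6 libraries. The other 4 (KRT14, TP63, CDH1 and LAMB3) had one in some of them, KRT14 in 2 vehicle and 0 OA libraries. For KRT14 and TP63 the canonical start lay outside the region. Of 8 luminal, immune, endothelial and fibroblast markers only PDGFRB had a region, called in 1 vehicle and 1 OA library.

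An H3K4me3 region was called in every vehicle and OA library at 9 of the 10 genes, and ALDH1L1 was the exception. Of all protein-coding genes, 56.4% had such a region. The 13 regions were called 13, 12 and 12 times in vehicle replicates 1, 2 and 3, and 13 times in each OA library. The difference in means, 12.3 ± 0.577 in vehicle and 13 ± 0 in OA (SD, n = 3), could not be told from the replicate spread (two-sided exact permutation test, p = 0.4, where 3 against 3 libraries cannot go below 0.1). Summed over the 13 regions, called peaks covered 16278 ± 3756 bp in vehicle and 18126 ± 2705 bp in OA (SD, n = 3; exact permutation p = 0.5). In the untreated libraries 12 and 11 regions were called, and IgG gave 0 peaks within 3 kb of any member's start in either library.

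**Figure D1:**
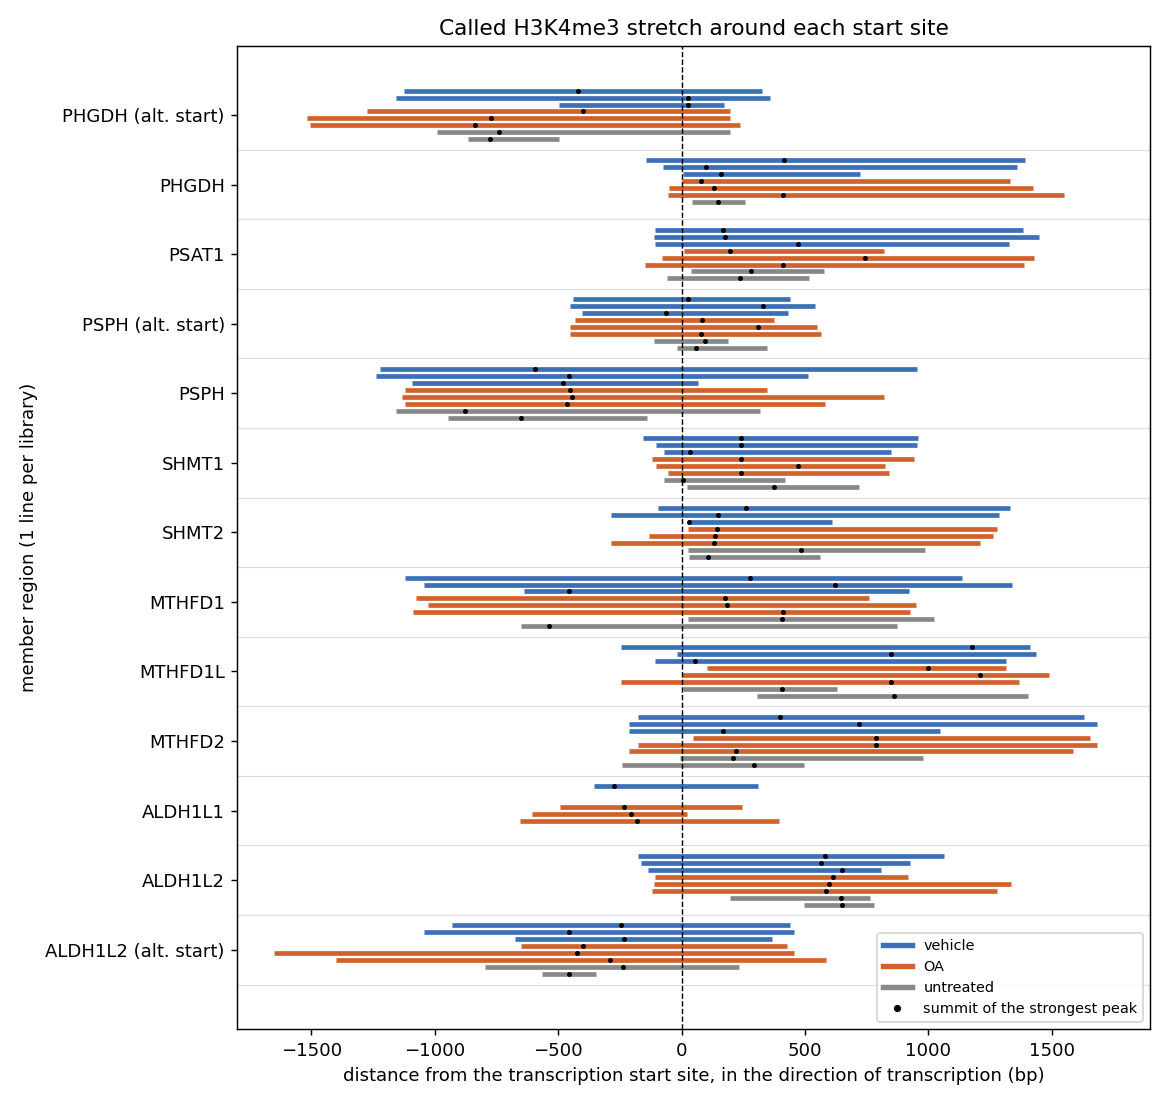
Called H3K4me3 stretch in each library (1 horizontal line per vehicle, OA or untreated library, in replicate order) against distance from the start site in bp, positive in the direction of transcription, with a dot at the summit of the strongest peak. PHGDH, PSAT1, SHMT1, SHMT2, MTHFD1L, MTHFD2 and ALDH1L2 lie mainly downstream of the start, PSPH and MTHFD1 reach more than 1 kb upstream, and ALDH1L1 has lines for 1 vehicle and 3 OA libraries.

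The mark lay downstream of the start at most of these genes. At canonical start sites, 47 of 58 summits (a summit is the position of highest signal in the strongest peak, 1 for each library with a call) were downstream. The merged PHGDH region, chr1:119711791-119713485, reached 143 bp upstream and 1551 bp downstream of the start and covered the whole 227 bp of exon 1 and part of the intron after it. PSAT1 (147 and 1449 bp), SHMT1 (156 and 959 bp), SHMT2 (288 and 1330 bp), MTHFD1L (246 and 1490 bp), MTHFD2 (214 and 1684 bp) and ALDH1L2 (176 and 1335 bp) had the same shape. Every canonical region held the whole of exon 1 of the canonical transcript, from 70 bp at ALDH1L2 to 348 bp at MTHFD1L. Among 7874 regions called in all 6 libraries with 1 canonical protein-coding start inside, the medians were 429 bp upstream and 1078 bp downstream, and 88.6% reached further downstream, so this shape is not particular to the enzymes.

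Some regions also hold the start of another gene. The PSPH region, chr7:56050489-56052682, includes the start of CCT6A, a chaperonin subunit gene read in the opposite direction from a start at -321 bp, and all 6 PSPH summits fell upstream, between -596 and -444 bp. Of 758 regions with 2 divergent protein-coding starts, 29.3% reached further downstream of the plus-strand start. Regions at 2 distant alternative starts were likewise shared with divergent neighbours: ZNF697, a zinc finger gene, starts at -145 bp from the PHGDH alternative start, and WASHC4, a subunit of the endosomal WASH complex, starts at -88 bp from that of ALDH1L2. A call in any of these regions cannot be assigned to PSPH, PHGDH or ALDH1L2 rather than to its neighbour. SHMT2, MTHFD1 and MTHFD2 share their regions with starts of noncoding or pseudogene transcripts (for MTHFD1, TEX21P).

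In base composition the members were set beside all regions called in all 6 libraries, which are not limited to promoters. The 13 regions had a median GC content of 58.0% (range 50.9 to 70.9%, highest at MTHFD1L), against 59.7% over the 11071 regions called in all 6 libraries. The ratio of observed to expected CpG was 0.642 at the median member and 0.742 over those regions, with SHMT2 lowest (0.434) and the ALDH1L2 alternative start highest (0.859). SHMT2 and the PSPH alternative start (0.545) lay below the 10th percentile of those regions, 0.569. No member lay above their 90th percentile, 0.887.

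For serine synthesis, no start site passed the rank test. At the PHGDH canonical start the percentile was 70.3, 83.7 and 75.9 in vehicle replicates 1 to 3 and 73.5, 96.2 and 64.1 in OA replicates 1 to 3, the order used for all values by library. The OA values enclosed the vehicle values, with OA replicate 3 lowest and OA replicate 2 highest. The fitted difference was 1.28 ± 9.64 percentile points (SE, n = 3 each; limma, adjusted p = 0.973). Fold enrichment at this start was 11.8, 11.6 and 14.5 in the vehicle libraries and 7.79, 12.5 and 8.28 in the OA libraries, again with overlap. Of the 2 untreated libraries, replicate 1 had a call here, at percentile 74.4.

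The PHGDH alternative start (chr1:119646891-119648768) lies 63523 bp upstream of the canonical start, over the 218 bp exon 1 of a protein-coding transcript. Its percentile was 57.7, 48.7 and 50.9 in the vehicle libraries and 74.7, 91.6 and 61.6 in the OA libraries. Every OA library ranked it above every vehicle library, a mean of 76.0 ± 15.04 against 52.4 ± 4.65 (SD, n = 3). The ranked peak had its summit at -419, 24 and 24 bp from this start in the vehicle libraries. In the OA libraries the summit lay at -398, -772 and -839 bp, all past the divergent ZNF697 start at -145 bp. The ranks thus describe different positions in the region and cannot be assigned to PHGDH rather than to ZNF697. The difference of 23.5 ± 9.84 points had an unadjusted p of 0.0317 and an adjusted p of 0.395 (limma), so it did not pass. Its fold enrichment did not separate the arms, at 8.46, 8.55 and 9.67 in the vehicle libraries and 7.20, 10.1 and 6.92 in the OA libraries, and the untreated libraries ranked it at 42.8 and 42.0.

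PSAT1 (chr9:78296978-78298574) ranked at 79.0, 86.8 and 61.4 in the vehicle libraries and 81.2, 79.4 and 85.5 in the OA libraries. The arms overlapped and the difference was 6.34 ± 8.54 points (limma, adjusted p = 0.817). Its called length was 1494, 1560 and 1167 bp in the vehicle libraries and 814, 1509 and 1537 bp in the OA libraries, with the shortest value in an OA library.

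At PSPH the differences had opposite signs at its 2 starts, and neither passed the test. The canonical region ranked at 77.9, 97.0 and 97.4 in the vehicle libraries and 83.8, 79.8 and 78.4 in the OA libraries, a difference of -10.1 ± 6.33 points (limma, adjusted p = 0.575). Vehicle replicates 2 and 3 stood above all others and replicate 1 below, so the arms overlapped. The ranked peaks of this region had their summits between -596 and -444 bp, past the divergent CCT6A start at -321 bp. Their ranks cannot be assigned to PSPH rather than to CCT6A. The alternative start (chr7:56033591-56034608), 17288 bp into the gene, covers 146 exonic bases of the canonical transcript and otherwise intron, and is shared with no other gene. There the percentile was 59.6, 78.2 and 66.1 in the vehicle libraries and 81.1, 86.8 and 94.6 in the OA libraries, with every OA library above every vehicle library. The difference was 19.5 ± 8.57 points (unadjusted p = 0.0395, limma adjusted p = 0.419), and the fold enrichments overlapped at 10.4, 14.9 and 11.4 against 9.51, 12.5 and 13.7.

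**Figure D2:**
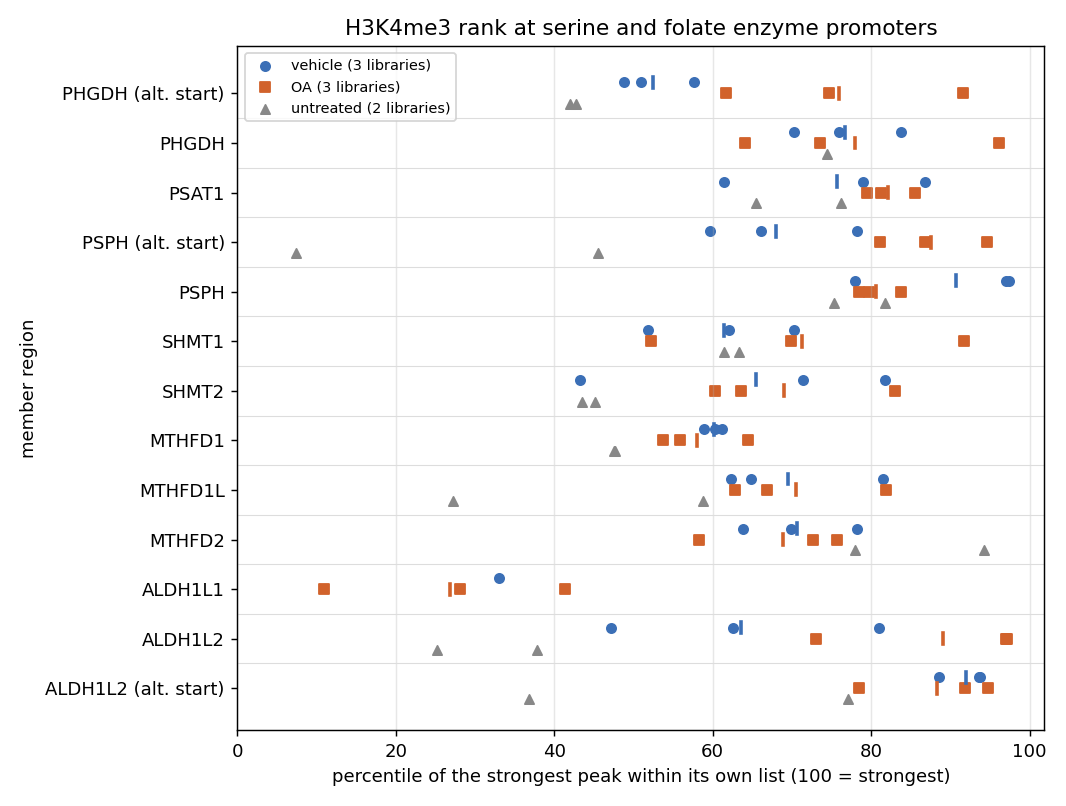
Percentile of the strongest H3K4me3 peak within its own list (x axis, 100 = strongest) for each member region, with 1 point per vehicle, OA and untreated library and a vertical bar at the mean of 3 libraries. Vehicle and OA points overlap except at the alternative starts of PHGDH and PSPH, and among these points ALDH1L1 is lowest, between 11.0 and 41.4; the lowest point of all is the untreated one at 7.43 for the PSPH alternative start.

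Of the serine hydroxymethyltransferases, the cytosolic SHMT1 (chr17:18362591-18363706) ranked at 70.2, 62.0 and 51.9 in the vehicle libraries and 91.7, 52.2 and 69.9 in the OA libraries. OA replicate 1 was the highest and the other OA libraries fell inside the vehicle range, a difference of 9.88 ± 11.0 points (limma, adjusted p = 0.769). The mitochondrial SHMT2 (chr12:57229423-57231041) ranked at 81.7, 71.4 and 43.2 in the vehicle libraries and 60.4, 83.0 and 63.6 in the OA libraries, a difference of 3.56 ± 11.4 points (adjusted p = 0.934, limma). Vehicle replicate 3, the library with the lowest background level, gave the lowest SHMT2 rank and the shortest call, 416 bp in 2 peaks against 1255 to 1575 bp elsewhere. That library had the fewest piled-up reads at 10 of the 12 member regions called in all 6 libraries, and the part of depth in these values was not tested.

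Among the MTHFD genes, MTHFD1 (chr14:64387230-64389690), the longest of the regions at 2461 bp, ranked at 61.2, 58.9 and 60.3 in the vehicle libraries and 53.7, 64.5 and 55.8 in the OA libraries. MTHFD1L (chr6:150865456-150867192) ranked at 64.9, 81.5 and 62.4 in the vehicle libraries and 66.9, 62.8 and 81.8 in the OA libraries. MTHFD2 (chr2:74198401-74200299) ranked at 78.2, 69.9 and 63.8 in the vehicle libraries and 58.3, 75.7 and 72.7 in the OA libraries. All 3 overlapped between arms, with differences of -2.14 ± 8.35, 0.940 ± 9.85 and -1.72 ± 9.50 points and adjusted p-values from 0.949 to 0.980 (limma). MTHFD1 carries out the cytosolic reactions, MTHFD2 the mitochondrial dehydrogenase step and MTHFD1L the release of formate. By the median over libraries, the strongest MTHFD1L signal lay deeper in the gene than at the other canonical starts, with a median summit 922.5 bp downstream of the start. Single MTHFD1L summits ran from 54 bp, in vehicle replicate 3, to 1211 bp, and so overlapped those of other members. Internal MTHFD1L starts at 150866333, 150866447 and 150866486 lie in the same region, between the canonical start (150865702) and that median summit. A weak further peak of 224 bp near an upstream MTHFD2 start, at percentile 6.03, was called in OA replicate 3 alone.

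ALDH1L1, the cytosolic formyl-tetrahydrofolate dehydrogenase, had the fewest calls and the lowest percentiles of the 13 regions in the vehicle and OA libraries. Its region (chr3:126180190-126181242) was called in vehicle replicate 1 and in all 3 OA libraries, and in neither untreated library. The call measured 667 bp in vehicle replicate 1 and 739, 632 and 1053 bp in OA, at percentiles of 33.1 in vehicle and 28.2, 11.0 and 41.4 in OA. Fold enrichment was 7.40 in the vehicle library and 6.36, 5.95 and 9.09 in OA, so the 1 vehicle call was within the range of the OA calls. By fold it was not the lowest member, since MTHFD1 was at 6.08 in vehicle replicate 1 and at 5.88 and 6.99 in OA replicates 1 and 3. The peaks rested on 17 piled-up reads in vehicle and 16, 9 and 37 in OA, against 16 to 302 at the other member regions. Calls in all 3 OA and 1 vehicle library were made at 2.87% of the 18734 regions, and the opposite pattern at 0.406%, a pair of patterns counted after the ALDH1L1 calls were seen. Without vehicle replicate 1, the region would be called in OA alone. A region without a call in a list may still carry the mark below the caller's threshold. Its 4 summits lay upstream of the start, between -273 and -179 bp, and no other gene starts inside the region, although the antisense transcript ALDH1L1-AS2 starts 574 bp downstream.

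ALDH1L2, the mitochondrial counterpart, was called in all 6 libraries. Its canonical region (chr12:105083123-105084634) ranked at 62.5, 81.0 and 47.1 in the vehicle libraries and 73.1, 97.0 and 97.1 in the OA libraries. OA replicates 2 and 3 stood highest and replicate 1 fell inside the vehicle range, a mean of 89.1 ± 13.8 against 63.5 ± 16.9 (SD, n = 3). This difference of 25.5 ± 10.6 points was the largest of the 12 regions tested with all 6 libraries (unadjusted p = 0.0307) and did not pass (limma, adjusted p = 0.394). Fold enrichment overlapped, at 10.1, 12.9 and 8.67 in the vehicle libraries and 8.15, 13.0 and 12.3 in the OA libraries. The untreated libraries ranked it at 25.2 and 37.8, below all 6 treated or vehicle libraries. The alternative start shared with WASHC4 (chr12:105107056-105109295), 23185 bp upstream, ranked at 93.7, 93.6 and 88.6 in the vehicle libraries and 91.8, 78.5 and 94.7 in the OA libraries (limma difference -3.61 ± 4.75 points, adjusted p = 0.810).

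Across the 12 member regions called in all 6 libraries, 0 passed the rank test in either direction by limma. Of all 11071 regions tested, 0.0181% were higher and 0% lower in OA, and 3 members and 1235 of all regions had an unadjusted p below 0.05. The members' 3 became 0 without vehicle replicate 3, 0 without OA replicate 2, 1 without OA replicate 3, 1 with equal peak numbers and 0 by log2 fold. The median difference was 2.42 points over the members and 0.878 points over all regions. The direction of the latter rested on the libraries and the scaling: it was -0.354 without vehicle replicate 3, -0.361 without OA replicate 3, -1.43 with equal peak numbers, -0.623 with calls covering 50% of the region and -0.696 with ranks among shared regions. Every OA library lay above every vehicle library at 2 of the 12 members, against 9.38% of all regions tested, and below at 0 members, against 7.1% of all.

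**Figure D3:**
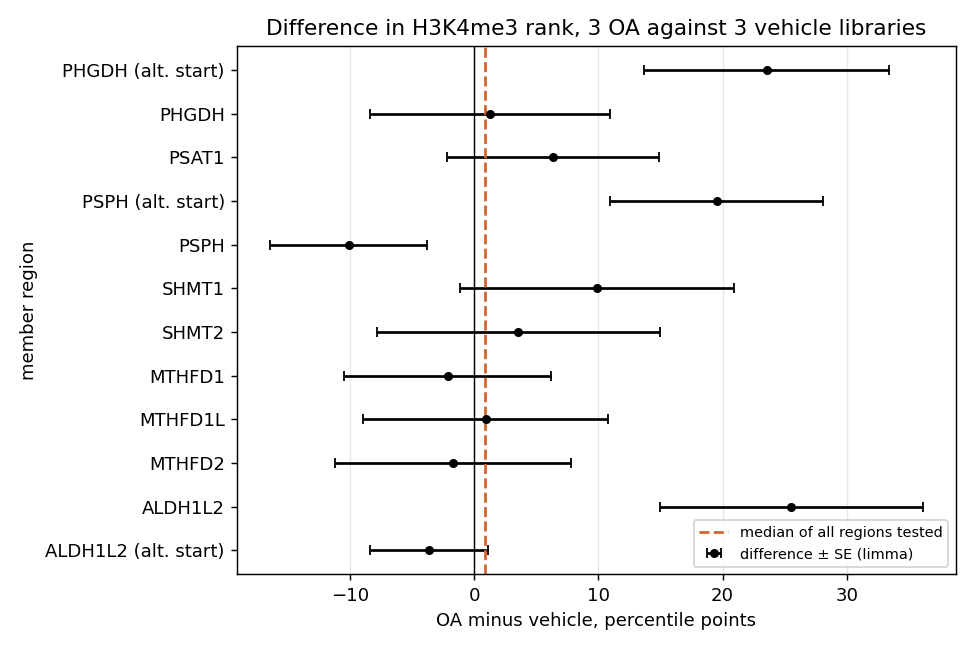
Difference in H3K4me3 percentile (OA minus vehicle, x axis, percentile points) for the 12 member regions called in all 6 libraries, as points with the limma standard error (n = 3 each), and a dashed line at the median of all regions tested, 0.878 with all 6 libraries, whose sign turned in some alternatives. ALDH1L2, the PHGDH alternative start and the PSPH alternative start lie furthest to the right, and none passed the test after adjustment.

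The length of the mark did not separate the arms either. Over all regions tested, called lengths were 0.13 higher in OA on the log2 scale at the median, with 74.3% of regions longer, and the members' median was 0.07. The median over all regions was -0.06 without vehicle replicate 3, and -0.03 with lengths centred on each library's median. By limma, 0 of the 12 members and 0% of all regions passed the length test, and 0 members and 266 of all regions had an unadjusted p below 0.05. With all 6 libraries the largest member difference was at the PHGDH alternative start, with 1453, 1515 and 669 bp in the vehicle libraries and 1472, 1718 and 1743 bp in the OA libraries (log2 difference 0.53 ± 0.32, limma adjusted p = 1.00). Vehicle replicate 3 gave the shortest call there, and at 7 of the 12 regions in all. Without it that difference was 0.14, smaller in size than the -0.30 of PSAT1, and with peaks at a q-value of at most 1e-05 SHMT2 had the largest, at 0.79. No member was longer, or shorter, in every OA library than in every vehicle library, which held for 6.68% and 0.533% of all regions.

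**Figure D4:**
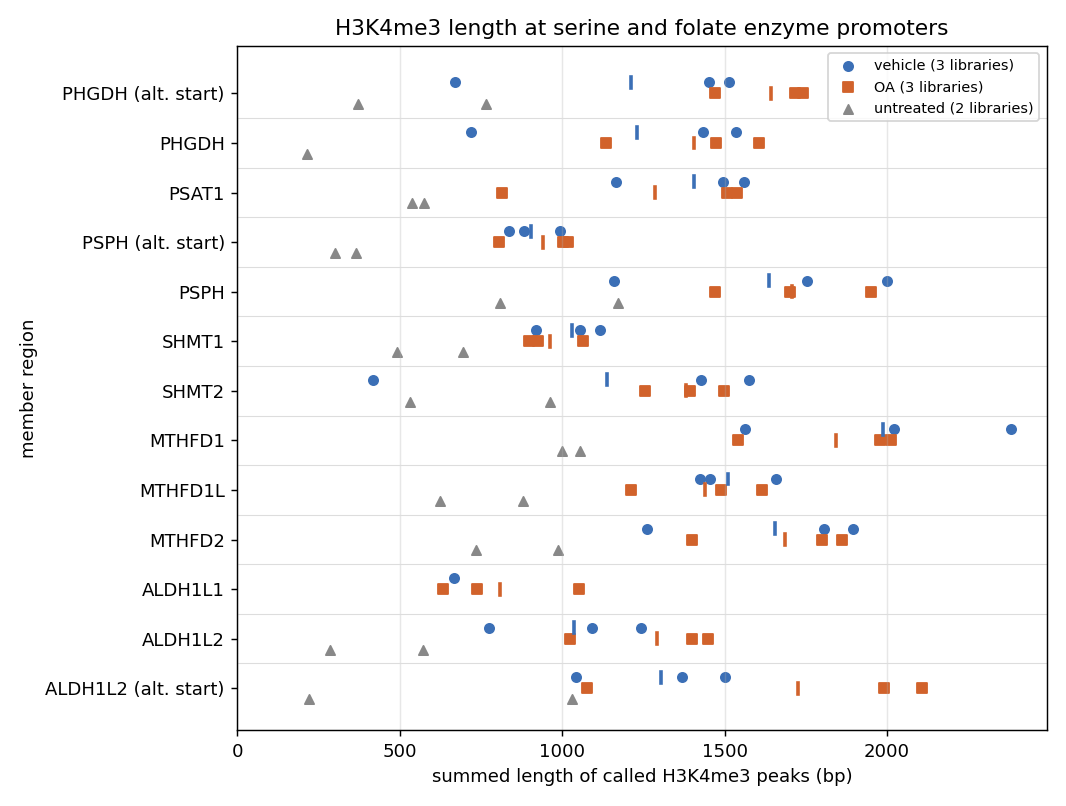
Summed length of the called H3K4me3 peaks in bp (x axis, from 0) for each member region, with 1 point per vehicle, OA and untreated library and a vertical bar at the mean of 3 libraries. Vehicle and OA points overlap at every region called in all 6 libraries, and untreated points lie at the left of most rows.

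With all 6 libraries, no member region was called in OA alone or in vehicle alone. Of all H3K4me3 regions, the first pattern (3 OA libraries, 0 vehicle) was found at 1.84% and the reverse at 0.0801%.

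H3K27me3 was not called at any of the 10 genes' start sites in any of the 6 libraries (0 regions in each, vehicle or OA). Of all protein-coding genes, 13.8% had an H3K27me3 region within 3 kb of a start, and single libraries had peaks there at 4.64% (OA replicate 3, the list with the fewest peaks, 9091) to 15.7% (OA replicate 1) of genes. The nearest call to a member was at ALDH1L1, 5612 bp from a start and inside the gene, in vehicle replicate 2, the list with the most peaks (47648); that library had 4 peaks in the ALDH1L1 gene body and the other 5 had none. For the PHGDH starts, the nearest peak lay 37977, 10008 and 10889 bp away in vehicle and 10122, 9510 and 67936 bp away in OA. SHMT2 had a peak 13033 to 14355 bp away in all libraries but OA replicate 3 (216108 bp). The nearest peaks to PSPH and ALDH1L2 lay 277640 to 1064593 bp away. Depth behind the H3K27me3 lists is unknown. Their peaks were short, with medians from 267 bp (OA replicate 3) to 409 bp (vehicle replicate 2). A start site without a call may still carry H3K27me3 below the caller's threshold.

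**Figure D5:**
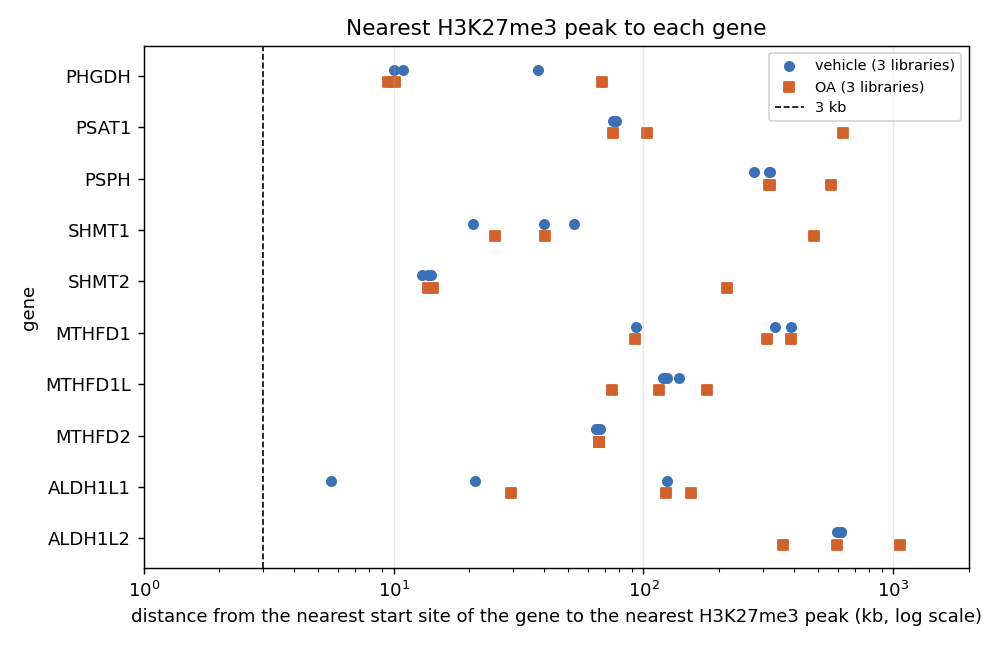
Distance in kb (log scale) from each gene's nearest start site to the nearest H3K27me3 peak, with 1 point per vehicle or OA library and a dashed line at 3 kb. All points lie to the right of the line, the closest at 5612 bp for ALDH1L1 in a vehicle library.

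Among 28 further genes of serine, glycine and folate metabolism, none passed a test. H3K4me3 regions lay near 26 of them, and 21 had one called in all 6 libraries. Of these 21, 0 passed the rank or the length test by limma, and 4 had an unadjusted rank p below 0.05. The rank difference was positive at 11 and negative at 10 of them, with a median of 0.144 points. The highest difference was at SFXN3, of the sideroflexin family of mitochondrial serine transporters, which ranked at 48.5, 34.5 and 28.3 in the vehicle libraries and 63.0, 82.2 and 67.7 in the OA libraries (33.8 ± 9.12 points, limma adjusted p = 0.246). At SFXN3 the arms did not overlap. Also below 0.05, and named after their values were seen, were SLC1A4, a neutral amino acid transporter, at 27.5 ± 8.93 points, and SLC46A1, the proton-coupled folate transporter, at 28.4 ± 11.3 points. H3K27me3 regions lay near 3 of the 28, SLC19A1, SARDH and FTCD, and FOLR1 and SARDH had no H3K4me3 region.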

How the data were processed

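H3K4me3, H3K27me3 and IgG CUT&RUN libraries of MCF-10A cells were sequenced and peaks were called by the authors in each library. Per the labels and methods, MACS2 2.2.7.1 called H3K4me3 narrow peaks on hg38. SICER is stated for H3K27me3, whose deposited lists have the MACS2 broad layout. The aligner, treatment of duplicates and control of the caller are not given in the sources used here. The fold enrichment (a ratio), −log10 p and −log10 q (p-value and q-value of each peak) are the authors' deposited values, unscaled between libraries. The score column was not used, and the authors' differential regions were not used.

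Peaks on the main chromosomes were merged over the 6 vehicle and OA libraries of a mark where they shared at least 1 bp, and kept with calls in at least 2 libraries. The strongest peak stood for a region in each library. Percentiles of −log10 p and log2 summed lengths were compared with limma 3.58.1 (R 4.3.3, trend, Benjamini-Hochberg, threshold 0.05) over regions called in all 6 libraries, without a replicate block, and call counts with two-sided exact permutation tests (scipy 1.17.1). The study's DiffBind test needs reads and could not be run on peak lists. Reads piled up under narrow peaks were solved from the fold and −log10 p (within 0.002 plus 0.02%), for 100% of the peaks tried, a step added after the data were seen. In simulated data with 200 of 11071 regions moved by 40 percentile points, 66 were recovered, and 135 of 200 when lengths moved by 2 on the log2 scale. The length simulation called 138 regions, not all of them planted. Simulated percentiles were left unbounded, unlike real ones, so the recovery of 66 does not measure the sensitivity of the rank test on these data. Noise was drawn separately for each region and library, without the shifts of whole libraries seen in real lengths. The recovery of 135 therefore does not measure the sensitivity of the length test either. Members, gene lists and motifs were chosen with earlier results of these data known. The genes planned to be named were the members, plus, of a fixed list of 28 pathway genes, those past a test and the highest and lowest. SLC1A4, SLC46A1, SLC19A1, SARDH, FTCD and FOLR1, of the same list, were named outside that plan. The lowest is not reported here. Alternatives were a q-value limit, equal peak numbers, 50% cover, regions of any library, a 1 kb window, other scalings, joined H3K27me3 peaks, a replicate block and the removal of each replicate. Python 3.11.15, numpy 2.4.6, pandas 2.3.3 and matplotlib 3.10.9 were used.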

Additional observations from a re-analysis of the deposited data

How the results depend on the processing

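No member passed the rank or the length test under any alternative run: 0 in each, with adjusted p-values from 0.162 (rank) and 0.622 (length) upward (limma). Genes with a region called in all libraries numbered 9, except 7 when a call had to cover 50% of the region. The difference in calls per library (main value 0.667) was 1.67 with that cover, 1 with regions of any library and 0.5 to 1 with a replicate left out. Member regions called in 1 arm alone numbered 0 to 1 with a replicate left out: without vehicle replicate 1, ALDH1L1 was called in OA alone. H3K27me3 calls stayed at 0. Same-numbered libraries correlated at 0.186, 0.194 and -0.151 in their deviations from the group means, so the numbers were not taken as pairs; with the replicate block the difference in calls was 0.667 (exact permutation p = 0.5, smallest possible 0.25), 0 members passed, and the regions passing the rank test over all 11071 went from 2 to 0. That count was also 0 at a q-value of 1e-05, with 50% cover, with ranks among shared regions and without any single library other than vehicle replicate 1 (3), and 5 with equal peak numbers; the cause was not tested.

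The rank differences at the alternative starts of PHGDH and PSPH and at ALDH1L2 kept their direction in every alternative that tested them, at 15.7 to 30.7, 15.3 to 24.6 and 17.3 to 34.2 points with a replicate left out, but were 0.0073, 0.126 and 0.232 on the log2 fold scale. With 50% cover 8 of the 12 member regions were tested, and the PHGDH alternative start was not among them. Of 304 values for single regions, 265 kept their direction and 39 turned. At a q-value of 1e-05, MTHFD1 was at 0.208 and MTHFD2 at 0.186 points. With equal peak numbers PHGDH was at -1.11, SHMT2 at -0.757 and MTHFD1L at -0.754, and with ranks among shared regions at -0.450, -0.525 and -0.232. By log2 fold PHGDH was at -0.27, PSAT1 at -0.043 and MTHFD1 at 0.053. With a replicate left out, rank differences ran from -7.84 to 8.18 (PHGDH), -0.842 to 11.9 (PSAT1), -0.335 to 19.4 (SHMT1), -7.56 to 11.7 (SHMT2), -5.38 to 0.0122 (MTHFD1), -4.73 to 6.89 (MTHFD1L), -5.14 to 3.58 (MTHFD2) and -6.79 to 1.31 (ALDH1L2 alternative start). Log2 length differences, centred on the library median, were -0.10 (PSPH alternative start), -0.071 (PSPH) and -0.12 (MTHFD2). Left-out ranges were -0.094 to 0.45 (PHGDH), 0.14 to 0.73 (PHGDH alternative start), -0.33 to 0.13 (PSAT1), -0.0038 to 0.16 (PSPH alternative start), -0.14 to 0.25 (PSPH), -0.12 to 0.84 (SHMT2), -0.26 to 0.043 (MTHFD1), -0.17 to 0.040 (MTHFD1L) and -0.14 to 0.17 (MTHFD2). The peak lists hold no reads, and the ALDH1L1 calls rested on as few as 9 piled-up reads.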
